A study of Mus musculus with 12 samples.

Results

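The extracellular matrix of the heart is cut, trimmed and cross-linked by a few families of secreted enzymes, and 53 genes of these families were followed here out of 22180 genes measured on the array. They were taken by symbol and not by their values, although the families were chosen with earlier results of these data known. The rule took every matrix metalloproteinase (Mmp), every tissue inhibitor of metalloproteinases (Timp1 to Timp4), every Adamts protease, every Adamtsl (ADAMTS-like) gene, and Lox with its Loxl relatives, where a probe set was annotated to that gene alone. The set held 22 Mmp, 18 Adamts, 5 Adamtsl, 4 Timp and 4 lysyl oxidase genes. Mmp15, Adamts2 and Loxl2 had no probe set of their own among those used and were not analysed here.

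Matrix metalloproteinases are zinc enzymes that cleave collagens, gelatin, elastin and proteoglycans, and they are made as inactive precursors. TIMPs block them by binding the active site, and Timp3 also inhibits several ADAMTS enzymes. ADAMTS proteases cleave proteoglycans such as versican or trim procollagens, whereas the ADAMTS-like proteins lack the protease domain and bind microfibrils. Lysyl oxidases cross-link collagen and elastin, the step that stiffens scar tissue in the heart.

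Whole hearts came from male FVB mice at 15 weeks of age, 3 hearts in each of 4 genotypes, 12 arrays in all. WT hearts carried neither allele. ErbB2 KI hearts carried a hypomorphic ErbB2 allele, made by knocking an ErbB2 cDNA into the locus, which lowers the receptor tyrosine kinase ErbB2. ERRα KO hearts lacked the nuclear receptor ERRα, and KI:KO hearts carried both alleles, obtained by crossing. Both alleles were present in every cell of the body, so no change can be assigned to cardiomyocytes. RNA came from powdered whole heart, and fewer cells of a type and less RNA per cell cannot be told apart.

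Signal was read as RMA log2 values, in which a difference of 1 is a 2-fold difference, and levels are not set against each other between genes. The targeted genes followed the labels: Esrra (which encodes ERRα) read 6.17 to 6.43 in the 6 ERRα-null hearts and 7.40 to 7.74 in the others, and Erbb2 read 5.61 to 5.97 in the 6 hearts with the KI allele and 6.39 to 6.80 in the rest. The 10 cardiomyocyte markers averaged 12.31 to 12.33 in WT, 12.28 to 12.31 in ErbB2 KI, 12.17 to 12.23 in ERRα KO and 12.08 to 12.16 in KI:KO. Both ERRα-null groups thus lay wholly below WT. Array medians lay between 4.58 and 4.65. A member was called low when its mean fell under the 40th percentile of all genes (4.67), which applied to 13 of the 53.

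In KI:KO hearts 10 of 53 members rose against WT (18.9%, beside 2.94% of all genes) and 1 fell (Adamts7, beside 2.66% of all genes), with calls made by limma where p, adjusted across every gene tested, was below 0.05. The risers were Timp1, Timp2, Timp3, Mmp2, Mmp19, Adamts1, Adamts8, Adamtsl2, Lox and Loxl1. In ERRα KO hearts 5 members rose (9.43%, beside 1.14% of all genes), namely Timp2, Timp3, Mmp2, Adamts6 and Adamtsl2, and Adamts7 was again the only one to fall (beside 1.21% of all genes). No member was called in ErbB2 KI hearts (8 at an unadjusted p under 0.05), where limma called 3 genes in all (0.0135%). The WT hearts are shared by these 3 comparisons.

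At an unadjusted p under 0.05, the limma counts were 8 of 53 members in ErbB2 KI (all genes 5.33%), 15 in ERRα KO (all genes 12.7%) and 21 in KI:KO (all genes 17.4%). The members' median difference from WT was 0.07, 0.08 and 0.16 on the log2 scale in that order, against medians over all genes of 0.00, 0.00 and -0.01. The 3 hearts of a genotype lay wholly above or below the 3 WT hearts in 14 members for ErbB2 KI (26.4%, all genes 11.7%), in 17 for ERRα KO (32.1%, all genes 20.1%) and in 20 for KI:KO (37.7%, all genes 22.9%).

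Against the single mutants, KI:KO hearts had 2 members above the ERRα KO level, Adamts8 and Adamtsl2 (0.198% of all genes were called higher), and 2 above the ErbB2 KI level, Adamts1 and Adamtsl2 (2.22% of all genes). At an unadjusted p under 0.05, 17 members differed from ERRα KO, 14 higher and 3 lower (all genes 10.6% in either direction). From ErbB2 KI 18 differed, 15 higher and 3 lower (all genes 15.5% in either direction). The interaction of the alleles, which asks whether KI:KO departs from the sum of the single mutants on the log2 scale, called no member (0.00902% of all genes, 2 genes), with 9 members at an unadjusted p under 0.05 (all genes 7.06%).

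**Figure D1:**
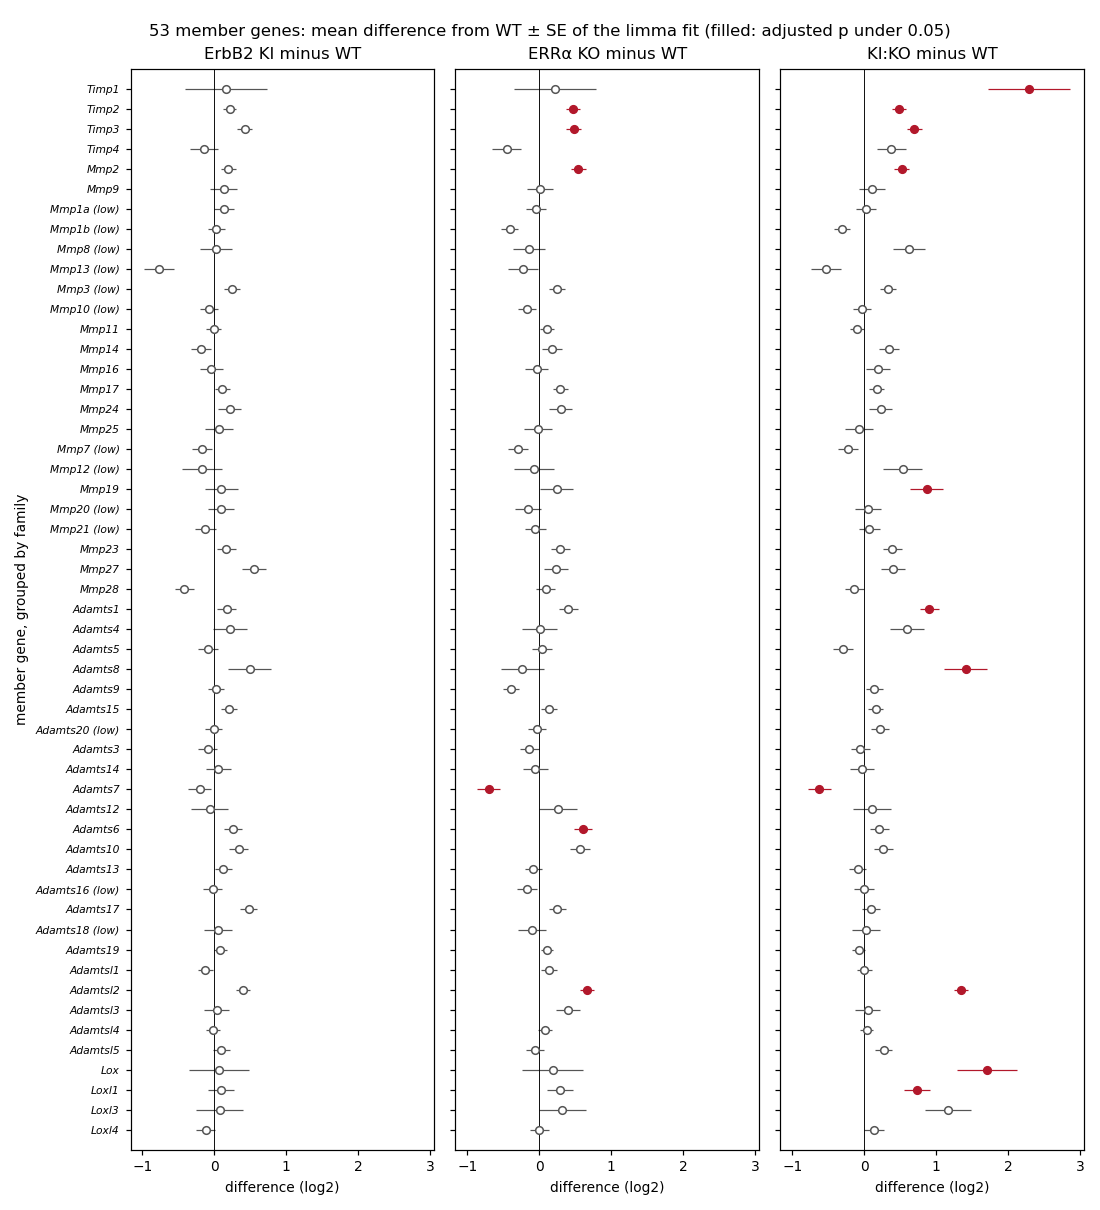
Difference from WT (log2, x axis) for each of the 53 genes (y axis, grouped by family; low genes are marked) in the 3 mutant genotypes (ErbB2 KI, then ERRα KO, then KI:KO), as the mean with its SE; filled points passed an adjusted p under 0.05. No point is filled in ErbB2 KI, 6 are in ERRα KO and 11 are in KI:KO, where Timp1 lies farthest from WT at 2.29.

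Among the inhibitors, 3 of the 4 rose in KI:KO hearts. Timp1, an inhibitor induced by injury and cytokines, read 5.16, 5.12 and 5.14 in the WT hearts and 9.27, 7.03 and 6.01 in the KI:KO hearts. The ErbB2 KI hearts read 5.15, 5.46 and 5.31, and the ERRα KO hearts 5.41, 5.17 and 5.52. Every KI:KO heart was above every heart of the other 3 genotypes, and the KI:KO hearts differed among themselves far more than those of any other genotype. The difference from WT was 2.29 ± 0.57 (SE), or 4.91-fold, with an adjusted p of 0.0363. Without KI:KO replicate 1 it was 1.38 (adjusted p = 0.00976). The call was lost on leaving out any one of 9 arrays, namely each WT array, each ErbB2 KI array, ERRα KO replicates 1 and 3 and KI:KO replicate 2 (adjusted p = 0.0511 to 0.102). It was also lost in an ANOVA, the kind of test the study's methods name, run here on KI:KO and WT alone, even at an unadjusted p under 0.05. Against ERRα KO and ErbB2 KI hearts Timp1 was 2.07 and 2.13 higher, at adjusted p of 0.17 and 0.0633. The second of these passed without KI:KO replicate 1 (1.22, adjusted p = 0.0243), and both passed without KI:KO replicate 3 (2.79 and 2.84, adjusted p = 0.021 and 0.0071).

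The promoter window of Timp1, the member with the largest rise, is printed as RefSeq gives it on GRCm38.p6 (chrX:20869916-20870215, plus strand, 250 bases before to 50 after the annotated start). Capitals mark TGAGTAA, a 1-letter variant of the AP-1 motif that lies 27 bases past the start. It was looked for after this window had been read, on both strands, and 2.68% of 32851 promoter windows of this length hold it.
Timp1: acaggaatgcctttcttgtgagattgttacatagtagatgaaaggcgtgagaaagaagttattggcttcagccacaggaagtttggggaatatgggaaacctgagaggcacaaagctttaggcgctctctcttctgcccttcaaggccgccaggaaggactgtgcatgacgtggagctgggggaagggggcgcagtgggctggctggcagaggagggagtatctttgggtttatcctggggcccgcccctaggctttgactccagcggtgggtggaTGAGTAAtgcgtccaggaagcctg

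Timp2 and Timp3 rose in both ERRα-null genotypes with little spread. Timp2, which inhibits gelatinase A and also helps to activate it, read 9.12, 9.12 and 9.05 in WT, 9.69, 9.44 and 9.57 in ERRα KO, while KI:KO hearts read 9.55, 9.63 and 9.57. ErbB2 KI hearts read 9.30, 9.44 and 9.19 and lay above WT, with the highest of them level with the lowest ERRα KO heart. Timp2 stood 0.47 ± 0.10 above WT in ERRα KO (adjusted p = 0.0221) and 0.49 ± 0.10 in KI:KO (adjusted p = 0.0101). Timp3, the inhibitor that binds the matrix itself, was higher in each mutant heart than in any WT heart. It read 9.07, 9.08 and 8.95 in WT, 9.32, 9.59 and 9.45 in ErbB2 KI, 9.61, 9.42 and 9.49 in ERRα KO, while KI:KO hearts read 9.58, 9.86 and 9.74. The difference was 0.42 ± 0.10 in ErbB2 KI (adjusted p = 0.582), 0.48 ± 0.10 in ERRα KO (adjusted p = 0.0349) and 0.69 ± 0.10 in KI:KO (adjusted p = 0.00234).

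The KI:KO calls of both inhibitors held on leaving out each array in turn. Their ERRα KO calls did not. Timp2 lost it without any one WT array or without ERRα KO replicate 1 or 3 (adjusted p = 0.0664 to 0.0939). Timp3 lost it without any one array of the 2 groups compared or without ErbB2 KI replicate 3 (adjusted p = 0.0522 to 0.139).

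Timp4, the inhibitor most restricted to heart and a few other tissues, was not called. It read 5.40, 5.94 and 5.25 in WT, 5.45, 5.17 and 5.54 in ErbB2 KI, 4.87, 5.09 and 5.27 in ERRα KO, while KI:KO hearts read 5.81, 6.26 and 5.66. The difference from WT was -0.15 ± 0.20 in ErbB2 KI (adjusted p = 0.996), -0.46 ± 0.20 in ERRα KO (adjusted p = 0.362) and 0.38 ± 0.20 in KI:KO (adjusted p = 0.374). KI:KO and ERRα KO hearts did not overlap, with KI:KO 0.83 ± 0.20 higher (adjusted p = 0.114). In the RefSeq annotation Timp1, Timp3 and Timp4 each overlap a synapsin gene (Syn1, Syn3 and Syn2). Syn2 rose in both ERRα-null groups, by 0.73 and by 0.69 with both alleles (adjusted p = 0.00487 and 0.00367). In ErbB2 KI hearts it stood 0.61 above WT without passing (adjusted p = 0.202). Syn1 and Syn3 stood at -0.15 and -0.03 in KI:KO (adjusted p = 0.707 and 0.955).

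**Figure D2:**
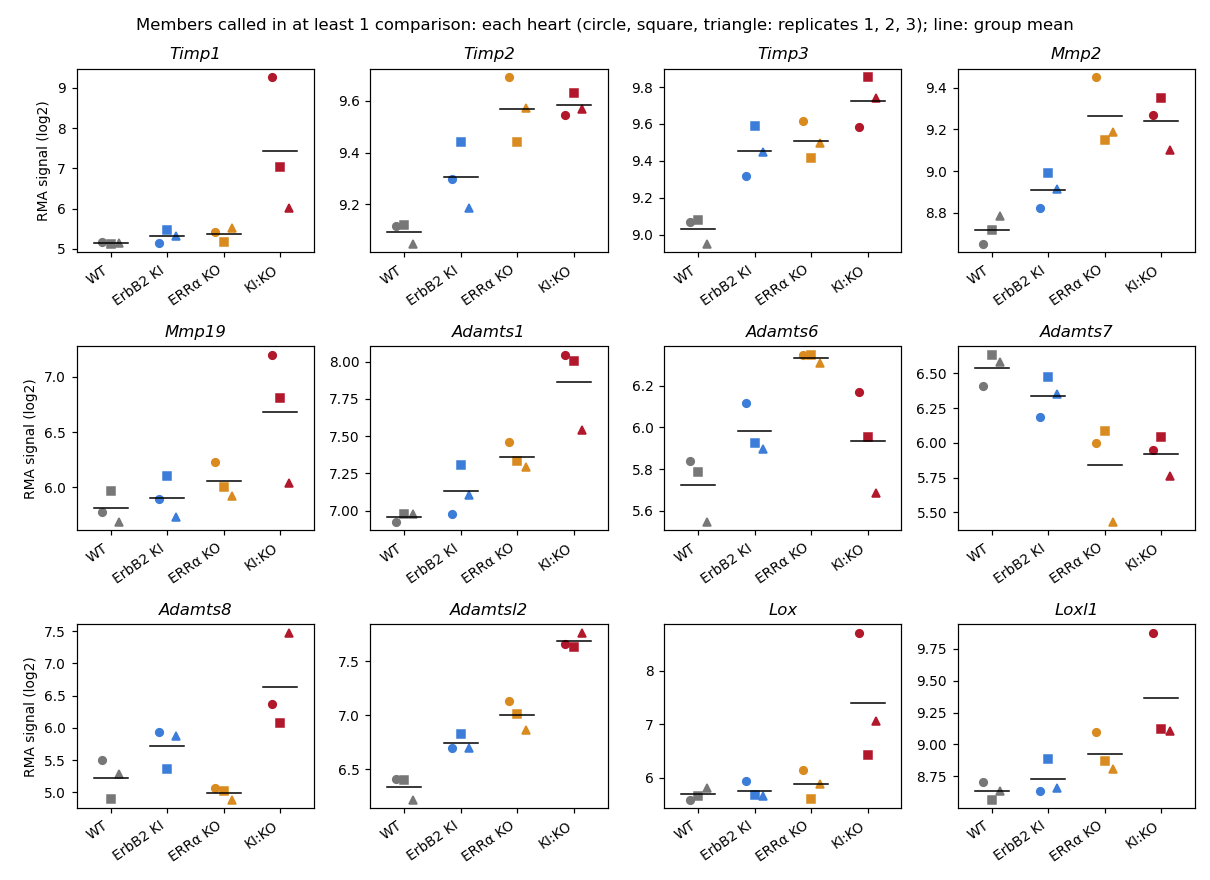
RMA signal (log2, y axis) of each heart by genotype (x axis) for the 12 members called in at least 1 comparison; circles, squares and triangles are replicates 1, 2 and 3 and lines are group means. Adamtsl2 has 4 separate levels, and the KI:KO hearts of Timp1 and Lox are widely spread. Timp2, Timp3 and Mmp2 are called higher in both ERRα-null genotypes. Their ErbB2 KI hearts also lie above all WT hearts, without a call.

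Of the 4 lysyl oxidases 2 rose in KI:KO hearts, Lox and Loxl1. Lox, the founding member of the family, read 5.59, 5.66 and 5.81 in WT, 5.93, 5.67 and 5.66 in ErbB2 KI, 6.14, 5.60 and 5.87 in ERRα KO, while KI:KO hearts read 8.71, 6.42 and 7.06. No KI:KO heart overlapped any other heart. Lox stood 1.71 ± 0.42 above WT, or 3.27-fold (adjusted p = 0.0341), and 1.05 without KI:KO replicate 1 (adjusted p = 0.0162). The call was lost without any one WT array, ErbB2 KI replicate 1 or 2, or ERRα KO replicate 3 (adjusted p = 0.0502 to 0.107), and Lox too missed an unadjusted p under 0.05 in the ANOVA of KI:KO and WT alone. Against ErbB2 KI hearts Lox was 1.64 ± 0.42 higher (adjusted p = 0.0521), which passed without KI:KO replicate 1 (0.99, adjusted p = 0.0292) or 2 (2.13, adjusted p = 0.0122).

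Loxl1, which acts on elastin, rose by 0.73 ± 0.18 in KI:KO hearts (adjusted p = 0.0338). It read 8.70, 8.57 and 8.63 in WT, 8.63, 8.89 and 8.66 in ErbB2 KI, 9.10, 8.87 and 8.81 in ERRα KO, while KI:KO hearts read 9.88, 9.12 and 9.11. The KI:KO replicate 1 heart stood apart from its 2 group mates, and without it the difference was 0.48 (adjusted p = 0.0495). The call was lost without any one WT array (adjusted p = 0.0823 to 0.107).

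Loxl3 read 6.41, 6.40 and 6.55 in WT, 6.55, 6.71 and 6.33 in ErbB2 KI, 7.06, 6.62 and 6.64 in ERRα KO, while KI:KO hearts read 8.64, 7.14 and 7.08. Its difference from WT in KI:KO was 1.17 ± 0.32, or 2.25-fold, at an adjusted p of 0.0595. All KI:KO hearts were above all others, and it passed the threshold on leaving out any one KI:KO array, with differences of 0.66, 1.41 and 1.44 without replicates 1, 2 and 3 (adjusted p = 0.0395, 0.0464 and 0.0304). With a block for a set of 4 arrays that deviated together, its adjusted p was 0.0426. Against ErbB2 KI hearts it was 1.09 higher (adjusted p = 0.0963) and passed without KI:KO replicate 3 (1.36) by a small margin. Loxl4 differed from WT by -0.12, 0.00 and 0.14 in the 3 mutant genotypes (ErbB2 KI, then ERRα KO, then KI:KO) (adjusted p = 0.996, 0.999 and 0.705).

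Among the metalloproteinases 2 of 22 rose in KI:KO hearts. Mmp2, gelatinase A, which fibroblasts make without induction, read 8.65, 8.71 and 8.79 in WT, 8.82, 8.99 and 8.91 in ErbB2 KI, 9.45, 9.15 and 9.18 in ERRα KO, while KI:KO hearts read 9.27, 9.35 and 9.10. The 3 ErbB2 KI hearts lay above the 3 WT hearts and below all ERRα-null hearts. Mmp2 rose against WT by 0.55 ± 0.11 in ERRα KO (adjusted p = 0.0192) and by 0.52 ± 0.11 in KI:KO (adjusted p = 0.0121). Leaving out any one WT array or ERRα KO replicate 1 ended the first call (adjusted p = 0.0523 to 0.0896), and leaving out WT replicate 1 or KI:KO replicate 2 the second (adjusted p = 0.0593 and 0.0523). Mmp14, the membrane-type enzyme that activates Mmp2, was 0.35 ± 0.14 above WT in KI:KO (adjusted p = 0.208) and 0.53 ± 0.14 above ErbB2 KI (adjusted p = 0.0591), a difference that passed without KI:KO replicate 2 (0.66, adjusted p = 0.0326) and, by a small margin, without the first ERRα KO array.

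Mmp19, an enzyme of macrophages, smooth muscle and endothelium that cleaves basement membrane proteins, rose by 0.87 ± 0.23 in KI:KO hearts, at an adjusted p of 0.0495. The hearts read 5.78, 5.97 and 5.69 in WT, 5.89, 6.10 and 5.73 in ErbB2 KI, 6.23, 6.01 and 5.92 in ERRα KO, while KI:KO hearts read 7.20, 6.81 and 6.04. The KI:KO replicate 3 heart lay within the range of the ERRα KO and ErbB2 KI hearts. The call was lost on leaving out any array other than KI:KO replicate 3 (adjusted p = 0.061 to 0.161), and without that array the difference was 1.19 (adjusted p = 0.00171). In the ANOVA of KI:KO and WT alone Mmp19 missed an unadjusted p under 0.05. Also without that array, Mmp19 passed against ERRα KO (0.95, adjusted p = 0.021) and ErbB2 KI hearts (1.10, adjusted p = 0.00393).

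Mmp9, gelatinase B of neutrophils and macrophages, did not pass in any comparison. It differed from WT by 0.13, 0.01 and 0.11 in the 3 mutant genotypes (ErbB2 KI, then ERRα KO, then KI:KO), and the 95% interval of the KI:KO difference ran from -0.30 to 0.51. Of the 11 neutrophil markers 10 were low by the same rule, all but Csf3r. Only Retnlg, itself one of the low markers, rose in KI:KO hearts (1.46, adjusted p = 0.0338). Its KI:KO replicate 3 heart (3.48) lay within the range of the ErbB2 KI hearts.

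A run of 10 metalloproteinase genes lies side by side on chromosome 9: Mmp13, Mmp12, Mmp1b, Mmp3, Mmp1a, Mmp10, Mmp8, Mmp27, Mmp20 and Mmp7. It holds the interstitial collagenases, stromelysins, the macrophage elastase Mmp12 and matrilysin Mmp7. With all arrays and no block, none of the 10 was called in any comparison. Between KI:KO and WT hearts 5 passed an unadjusted p under 0.05, 3 higher and 2 lower (50%, beside 17.4% of all genes). All but Mmp27 were low.

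Of these 10 genes 7 hold a promoter motif that the choice of members did not use. The AP-1 motif, TGACTCA or its reverse complement TGAGTCA, the site for Fos and Jun dimers, was found in 7 of their 12 promoter windows (58.3%), beside 5.2% of all 32851 windows. Each of those 7 windows belongs to a different gene. Outside the run, none of 26 windows of 25 other members held it, and the windows of the called members Timp1, Timp2, Timp3, Adamts1 and Adamtsl2 held no AP-1 motif, no ERR motif (TCAAGGTCA or its reverse complement, 0.423% of all windows) and no STAT motif (TTCNNNGAA, 8.3% of all windows). Of all the members' windows the STAT motif was in both of Mmp23's. Windows of the other called members were not used here. The 7 stretches are shown to set the sites side by side, with the motif in capitals, 12 bases on each side of it and GRCm38.p6 coordinates.
Mmp13, chr9:7272467-7272497, plus strand: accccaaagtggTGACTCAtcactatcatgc
Mmp12, chr9:7347318-7347348, plus strand: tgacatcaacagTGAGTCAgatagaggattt
Mmp1b, chr9:7388101-7388131, minus strand: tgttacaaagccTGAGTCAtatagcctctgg
Mmp3, chr9:7445764-7445794, plus strand: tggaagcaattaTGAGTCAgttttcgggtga
Mmp1a, chr9:7464056-7464086, plus strand: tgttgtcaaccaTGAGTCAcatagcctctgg
Mmp10, chr9:7502267-7502297, plus strand: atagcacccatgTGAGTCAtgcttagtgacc
Mmp7, chr9:7692015-7692045, plus strand: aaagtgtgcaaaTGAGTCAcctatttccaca

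The motif began between 93 and 35 bases before the annotated start. Mmp1a and Mmp1b are close copies, and probes may read both. TATAAA, also searched on both strands after these windows had been read, was in 9 of the 12 windows and in 13.6% of all windows. A match is only a run of letters and does not show that a factor binds there.

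**Figure D3:**
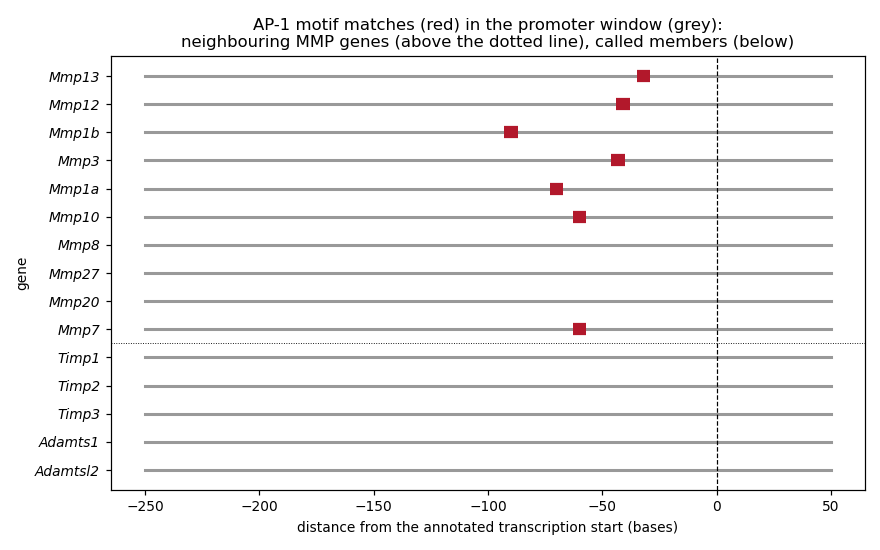
Promoter windows (grey lines, from 250 bases before to 50 after the annotated start, x axis in bases) of the 10 neighbouring Mmp genes (above the dotted line) and of 5 called members with a window (below it); red blocks are AP-1 motif matches. Matches lie between -93 and -35 in 7 of the 10 upper genes and there is none below; Mmp12 and Mmp7 have 2 windows each, of which 1 holds the match.

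Values of the run lay on both sides of WT. Mmp13, collagenase 3, read 4.22, 4.91 and 4.37 in WT and 3.64, 3.69 and 3.87 in ErbB2 KI hearts, a difference of -0.77 ± 0.21 (adjusted p = 0.673) with no overlap. In KI:KO hearts it read 3.72, 3.76 and 4.43, or -0.53 against WT (adjusted p = 0.199), and passed without KI:KO replicate 3 (-0.76, adjusted p = 0.0382). It also passed with a block for a set of 4 arrays, 1 per genotype, that deviated together (-0.53, adjusted p = 0.0175), and without those arrays (-0.55, adjusted p = 0.0377). Against WT, Mmp1b stood at -0.41 in ERRα KO hearts and at -0.31 with both alleles (adjusted p = 0.101 and 0.169), with no overlap in either case.

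Mmp8, the neutrophil collagenase, read 3.64, 4.08 and 3.67 in WT and 4.73, 4.30 and 4.22 in KI:KO, a difference of 0.62 ± 0.22 (adjusted p = 0.148) that passed without the same 4 arrays (0.86, adjusted p = 0.0447). Every KI:KO heart exceeded every other heart. Mmp12 read 5.19 in KI:KO replicate 1 and 3.98 and 3.99 in its group mates, against 3.95, 3.71 and 3.89 in WT (difference 0.54, adjusted p = 0.357). Mmp3, stromelysin 1, was 0.24, 0.25 and 0.33 above WT in the 3 mutant genotypes (ErbB2 KI, then ERRα KO, then KI:KO) (adjusted p = 0.914, 0.392 and 0.129), and the KI:KO difference passed without KI:KO replicate 3 (0.44, adjusted p = 0.0306). Mmp27 was 0.55 ± 0.17 higher in ErbB2 KI than in WT hearts (adjusted p = 0.735), and Mmp28, which lies elsewhere and is known from epithelium and macrophages, was 0.42 ± 0.13 lower (adjusted p = 0.77). Neither pair of groups overlapped.

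The Adamts proteases held the only gene that fell. Adamts7, which cleaves cartilage oligomeric matrix protein and is studied in vascular smooth muscle, read 6.41, 6.63 and 6.58 in WT, 6.19, 6.48 and 6.35 in ErbB2 KI, 6.002, 6.08 and 5.43 in ERRα KO, while KI:KO hearts read 5.95, 6.05 and 5.76. All 6 ERRα-null hearts were below all 6 hearts with ERRα. The difference from WT was -0.70 ± 0.16 in ERRα KO (adjusted p = 0.042) and -0.62 ± 0.16 in KI:KO (adjusted p = 0.0412). Both calls sat near the threshold. The first was kept only without ERRα KO replicate 2 or KI:KO replicate 3 (adjusted p 0.0553 to 0.141 without the others), and the second only without one ERRα KO array (0.0517 to 0.133 without the others).

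Adamts1, a proteoglycanase that cleaves versican and aggrecan, rose in KI:KO hearts by 0.91 ± 0.13, or 1.87-fold (adjusted p = 0.00211). It read 6.92, 6.98 and 6.97 in WT, 6.97, 7.31 and 7.11 in ErbB2 KI, 7.46, 7.33 and 7.29 in ERRα KO, while KI:KO hearts read 8.05, 8.003 and 7.54. The ERRα KO hearts were 0.40 ± 0.13 above WT with no overlap (adjusted p = 0.185), and the KI:KO hearts were above all of them. Against ErbB2 KI the rise was 0.73 ± 0.13 (adjusted p = 0.00965), which did not pass without ErbB2 KI replicate 1 (adjusted p = 0.0524). Against ERRα KO it was 0.50 ± 0.13 (adjusted p = 0.154) and passed without KI:KO replicate 3 (0.66, adjusted p = 0.021). The call against WT held on leaving out each array. The aggrecanase Adamts5 was -0.29 ± 0.14 from WT in KI:KO (adjusted p = 0.295), and -0.46 without KI:KO replicate 3 (adjusted p = 0.0373).

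Adamts8, an ADAMTS with angiostatic activity, read 5.50, 4.90 and 5.28 in WT, 5.93, 5.36 and 5.87 in ErbB2 KI, 5.06, 5.03 and 4.89 in ERRα KO, while KI:KO hearts read 6.37, 6.08 and 7.48. Every KI:KO heart was above every other heart, and here KI:KO replicate 3 was the highest. The difference was 1.41 ± 0.30 against WT (2.66-fold, adjusted p = 0.0164), 1.65 ± 0.30 against ERRα KO (adjusted p = 0.0444) and 0.92 ± 0.30 against ErbB2 KI (adjusted p = 0.134). Leaving out the second WT array ended the first call (1.25, adjusted p = 0.0694), and the difference was 0.996 without KI:KO replicate 3 (adjusted p = 0.0167). The second was lost without any one of 10 arrays, all but KI:KO replicates 2 and 3 (adjusted p = 0.0552 to 0.191). A second, dimmer probe set of Adamts8 gave 0.65 against WT in KI:KO and 0.50 against ERRα KO (adjusted p = 0.261 and 0.653 over all probe sets). With the mean of both probe sets the call against ERRα KO was lost (1.07, adjusted p = 0.096).

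Adamts6 was called in ERRα KO against WT and in no other comparison. It read 5.84, 5.79 and 5.55 in WT, 6.12, 5.93 and 5.90 in ErbB2 KI, 6.35, 6.34 and 6.31 in ERRα KO, while KI:KO hearts read 6.17, 5.95 and 5.69. The ERRα KO hearts were within 0.04 of each other and 0.61 ± 0.13 above WT (adjusted p = 0.026), whereas KI:KO hearts were 0.21 ± 0.13 above WT (adjusted p = 0.447). The ERRα KO call was lost on leaving out any one WT or ERRα KO array (adjusted p = 0.0605 to 0.115). Adamts10, its close relative and a binder of fibrillin, read 5.72, 6.21 and 5.99 in WT and 6.41, 6.53 and 6.68 in ERRα KO, or 0.56 ± 0.14 higher (adjusted p = 0.0535), and passed without WT replicate 2 (0.68, adjusted p = 0.0388). The interaction stood at -0.65 ± 0.18 for Adamts6 and -0.64 ± 0.19 for Adamts10 (adjusted p = 0.425 and 0.494).

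Adamts9, a versican-cleaving enzyme needed for heart development in mice, read 7.40, 7.37 and 7.41 in WT and 7.26, 6.83 and 6.90 in ERRα KO. That was -0.39 ± 0.12 with no overlap (adjusted p = 0.127), and -0.52 without ERRα KO replicate 1 (adjusted p = 0.034). KI:KO hearts read 7.46, 7.44 and 7.71, or 0.54 ± 0.12 above ERRα KO (adjusted p = 0.0875), and 0.67 without ERRα KO replicate 1 (adjusted p = 0.0383). Adamts4, an aggrecanase, was 0.60 ± 0.24 above WT in KI:KO (adjusted p = 0.206, and 0.0352 with the block for the set of 4 arrays) and Adamts17 0.48 ± 0.12 above WT in ErbB2 KI (adjusted p = 0.6).

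Adamtsl2 was called in 4 of the 6 comparisons. The protein has no protease activity, binds fibrillin and latent TGF-β binding protein, and in humans its loss causes geleophysic dysplasia. It read 6.40, 6.39 and 6.21 in WT, 6.70, 6.83 and 6.70 in ErbB2 KI, 7.13, 7.01 and 6.86 in ERRα KO, while KI:KO hearts read 7.66, 7.63 and 7.77. The 4 genotypes did not overlap. The difference from WT was 0.40 ± 0.10 in ErbB2 KI (adjusted p = 0.53), 0.66 ± 0.10 in ERRα KO (adjusted p = 0.00416) and 1.35 ± 0.10, or 2.55-fold, in KI:KO (adjusted p = 2e-05). KI:KO was also 0.69 above ERRα KO (adjusted p = 0.0136) and 0.95 above ErbB2 KI (adjusted p = 0.000301). Of these 4 calls the one against ERRα KO depended on single arrays. It ended without KI:KO replicate 1 (0.70, adjusted p = 0.0506) and without the third ERRα KO array (0.62, adjusted p = 0.075). The interaction was 0.28 ± 0.14 (adjusted p = 0.718), with a 95% interval from -0.02 to 0.59. Without a set of 4 arrays, 1 per genotype, that deviated together, the calls in ERRα KO against WT and in KI:KO against ERRα KO were lost.

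The promoter window of Adamtsl2 is shown because this gene was called in more comparisons than any other member (chr2:27079129-27079428, plus strand, GRCm38.p6, RefSeq). Capitals mark TATAAA, 30 bases before the annotated start.
Adamtsl2: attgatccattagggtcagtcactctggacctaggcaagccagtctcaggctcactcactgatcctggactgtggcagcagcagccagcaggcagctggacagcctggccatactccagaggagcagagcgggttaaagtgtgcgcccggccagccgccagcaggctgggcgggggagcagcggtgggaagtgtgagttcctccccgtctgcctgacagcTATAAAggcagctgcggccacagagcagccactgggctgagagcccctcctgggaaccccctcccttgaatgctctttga

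The other Adamtsl genes showed no call. Adamtsl3 was 0.40 ± 0.17 above WT in ERRα KO (adjusted p = 0.349) and in KI:KO it was 0.35 below ERRα KO (adjusted p = 0.505). The 23 members not named one by one for their values, among them Mmp10, Mmp11, Mmp16, Mmp17, Mmp24, Adamts3, Adamts12, Adamts14, Adamts15 and Adamtsl4, differed from WT by -0.22 to 0.39 in KI:KO, by -0.29 to 0.30 in ERRα KO and by -0.17 to 0.21 in ErbB2 KI hearts. The smallest adjusted p among them in these 3 comparisons was 0.133.

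The KI:KO hearts were unequal in these genes. The SD over 3 hearts exceeded 0.5 in 7 of 53 members in KI:KO, against 2.31% of all genes, and in no member in WT, ErbB2 KI or ERRα KO. The 7 were Timp1 (SD 1.67), Lox (1.18), Loxl3 (0.88), Adamts8 (0.74), Mmp12 (0.70), Adamts12 (0.65) and Mmp19 (0.59). KI:KO replicate 1 was the highest of the 3 hearts for all of them but Adamts8. Over all 53 members that heart was the highest for 29 (54.7%), and over all genes for 32.9%. The median SD of a member in KI:KO was 0.20, against 0.15 over all genes.

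**Figure D4:**
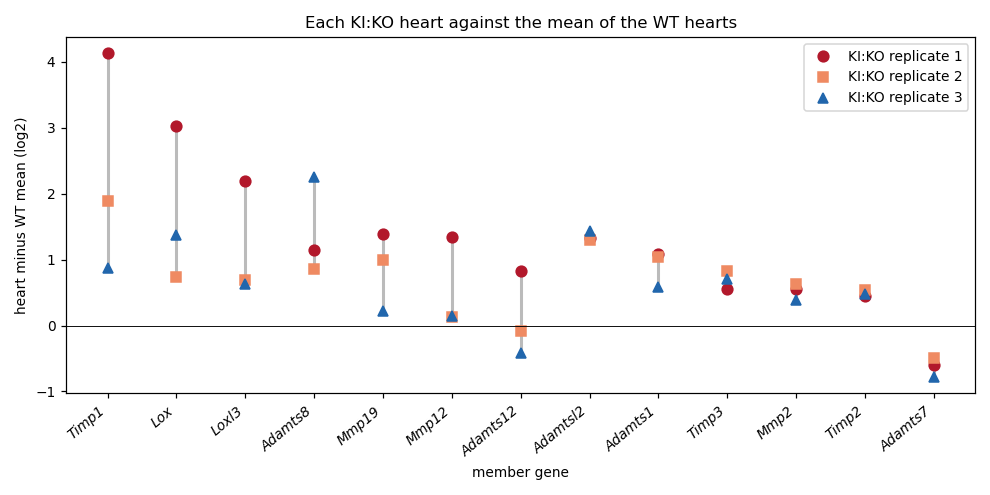
Signal of each KI:KO heart minus the mean of the WT hearts (log2, y axis) for 13 members (x axis); markers are replicates and grey lines join the lowest and highest heart. Timp1 runs from 0.87 to 4.13 with replicate 1 on top, whereas Adamtsl2 runs from 1.30 to 1.43 on the same axis.

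Several lists of markers of other cells moved with these genes, and their part in the results was not tested. The 15 macrophage and monocyte markers averaged 6.75 to 7.003 in WT, 6.74 to 6.82 in ErbB2 KI, 6.93 to 7.52 in ERRα KO and 7.48 to 7.69 in KI:KO. Of them 10 of 15 were called higher in KI:KO than in WT (66.7%, beside 2.94% of all genes). The 7 myofibroblast markers averaged 6.69 to 6.89 in WT and 7.22 to 8.46 in KI:KO, with 3 of 7 called higher (42.9%). Fap, also on that list, lay wholly below WT (5.98, 6.03 and 5.99 in WT, 5.90, 5.41 and 5.41 in KI:KO). The 10 fibroblast markers averaged 9.17 to 9.19 in WT and 9.54 to 9.94 in KI:KO, with 2 of 10 called higher (20%). KI:KO replicate 1 was at the top in each of the 3 lists. In ERRα KO hearts, where Timp2, Timp3 and Mmp2 rose, the fibroblast markers averaged 9.43 to 9.70 (median difference from WT 0.39). Of these markers 1 of 10 was called higher (10%, beside 1.14% of all genes). At an unadjusted p under 0.05 there were 7 (70%, beside 12.7% of all genes in either direction). The 6 fat markers averaged 6.35 to 6.56 in WT, 6.96 to 8.01 in ErbB2 KI, 7.34 to 7.75 in ERRα KO and 6.33 to 6.94 in KI:KO. Their median difference from WT was 0.74, 0.73 and 0.18 in that order, and their median interaction -1.22, with none called in the interaction. In ERRα KO against WT 2 of 6, Ucp1 and Car3, were called higher (33.3%, beside 1.14% of all genes). The 5 atrial markers had median differences from WT of 0.32 and 0.22 in the single mutants (ErbB2 KI first) and -0.01 with both alleles. Their median interaction was -0.27, and none was called in any comparison. Among the 53 members 9 had an interaction at an unadjusted p under 0.05, 6 positive and 3 negative. The 3 negative ones were Adamts6, Adamts10 and Adamts17 (-0.65, -0.64 and -0.63), none of which passed. All 3 had positive differences in both single mutants. Whether they are linked to the fat or atrial markers was not tested. Of 8 endothelial markers 1 was called lower (12.5%, beside 2.66% of all genes) and none higher in KI:KO than in WT. Of 8 smooth muscle and pericyte markers 2 were called lower and 1 higher (37.5% in either direction, beside 5.6% of all genes). Of the 10 cardiomyocyte markers 3 were called lower in KI:KO than in WT (30%, beside 2.66% of all genes). Wholly below WT lay 8 of the 10 (80%), beside 2706 of all 22180 genes. The 3 called lower were Myl2, Myl3 and Mybpc3, which fell by 0.50, 0.47 and 0.48.

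Of 22 measured genes of collagen and elastin processing and cross-linking, a list that also holds matrix components, 8 rose and none fell in KI:KO hearts, and the other 14 did not pass. The risers were 36.4% of the list, beside 2.94% of all genes. The median difference was 0.33, beside -0.01 over all genes. Pcolce, which speeds the trimming of procollagen, rose by 0.82 in ERRα KO and 1.12 in KI:KO (adjusted p = 0.00748 and 0.000601). Tgm2, the cross-linking transglutaminase, rose by 1 on the log2 scale in KI:KO against WT (adjusted p = 0.00187), and the prolyl hydroxylase subunit P4ha1 by 0.84 (adjusted p = 0.0104). The lysyl hydroxylase Plod1 rose by 0.41. The remaining risers, Postn, Fn1, Eln and Ltbp2, are components or binders of the matrix and rose by 0.84 to 1.52. Postn and Ltbp2 are also in the myofibroblast list. P4ha2 fell by 0.62 in ERRα KO hearts (adjusted p = 0.012).

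Among 36 other proteases, activators and inhibitors of the matrix, 6 rose (16.7%) and 1 fell in KI:KO hearts, with a median of 0.25. Over all genes 2.94% rose and 2.66% fell, with a median of -0.01. The risers were the urokinase receptor Plaur (0.66), the proprotein convertase Furin (0.44), the collagen-cleaving cathepsin Ctsk (0.67), the sheddase Adam9 (0.57), Serpinf1 (0.56) and Lrp1 (0.51), a scavenger receptor that clears protease complexes. Htra1 fell by 0.40. Of 24 substrates of these enzymes 5 rose (20.8%) and none fell, with a median of 0.39. Fn1 and Eln are also in the cross-linking list. Among the 5 were the proteoglycans Vcan (1.04) and Bgn (0.67) and the matricellular Thbs1 (1.48). In ErbB2 KI hearts no gene of the 3 lists was called, at medians of 0.07, 0.07 and 0.10.

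**Figure D5:**
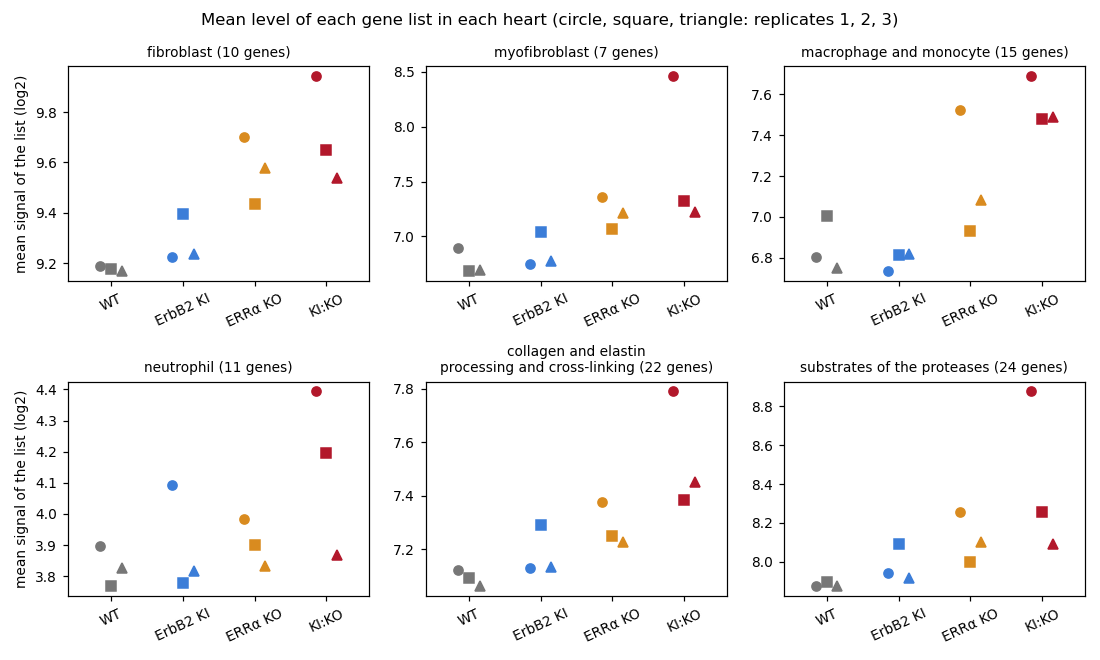
Mean signal (log2, y axis) of 4 marker lists, the 22 processing and cross-linking genes and the 24 substrates in each heart, by genotype (x axis); circles, squares and triangles are replicates 1, 2 and 3. KI:KO replicate 1 is the highest heart in all 6 panels, at 8.46 for the myofibroblast markers against 7.32 and 7.22 in its group mates. The panels are not independent, because lists share genes. Dcn, Col1a1 and Col3a1 are both fibroblast markers and substrates, and Tnc and Comp both myofibroblast markers and substrates. Postn and Ltbp2 are both myofibroblast markers and cross-linking genes, and Fn1 and Eln both substrates and cross-linking genes.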

How the data were processed

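Total RNA from powdered heart was hybridised to Affymetrix Mouse Gene 2.0 ST arrays. The authors deposited log2 values after RMA background correction, quantile normalisation and summarisation, with Affymetrix Expression Console 1.4.1 and the Transcriptome Analysis Console named in the submitters' notes; the genome build is not given in the sources used here. Of 41345 probe sets, 23521 were annotated to 1 gene, 1820 to several and 16004 to none. For each of 22180 genes the probe set with the highest mean over 12 arrays was kept. Group means were fitted with limma 3.58.1 in R 4.3.3 on all arrays (8 residual and 3.81 prior degrees of freedom), with Benjamini-Hochberg adjustment over all genes in each of 6 comparisons; the script was tested on simulated data. RMA compresses low signals, and 3 arrays a group limit the precision. The study's methods used ANOVA at an unadjusted p under 0.05 and 1.2-fold. As an alternative, an ANOVA at that threshold was run here on the 2 groups compared. Named were all members called in any comparison, all TIMP and LOX genes, a fixed list of Mmp and Adamts genes and the 2 largest uncalled changes each way per comparison. Members and lists were chosen with earlier results of these data known. Promoter windows and neighbours are from RefSeq (GRCm38.p6), matched by symbol for 35 of 53 members.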

Additional observations from a re-analysis of the deposited data

Results flagged for a closer look

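2 members were set apart by non-overlapping groups. Hearts with the ErbB2 KI allele all lay above those without it when ERRα was present, and all below when it was absent. Adamts6 was 0.26 higher in ErbB2 KI hearts than in WT, but 0.40 lower in KI:KO hearts than with ERRα loss alone, an interaction of -0.65 (adjusted p = 0.425). Adamts10 was 0.34 higher and 0.30 lower in the same pairs, an interaction of -0.64 (adjusted p = 0.494). Its separation from WT was close to a tie, with the lowest ErbB2 KI heart at 6.213 and the highest WT heart at 6.212. The difference between the backgrounds did not pass for either gene, and the same opposite separation was seen in 0.744% of all genes. No member separated in opposite ways with the loss of ERRα.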

How the results depend on the processing

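No call of a named member changed direction under any alternative, and 6 of the 21 calls held on leaving out each array in turn. Over those fits the members called ran from 0 to 0 in ErbB2 KI against WT, 1 to 6 in ERRα KO against WT (6 with all arrays), 5 to 15 in KI:KO against WT (11), 0 to 6 in KI:KO against ERRα KO (2), 1 to 5 in KI:KO against ErbB2 KI (2) and 0 to 0 for the interaction. Over all genes the ranges were 2 to 15, 210 to 585, 710 to 1235, 17 to 248, 401 to 839 and 1 to 22 in that order. The 6 members in KI:KO against ERRα KO came without KI:KO replicate 3, where all genes called were 248, against 73 with all arrays. With only the arrays of the groups compared, the counts were 2, 6, 0 and 1 for ERRα KO against WT, KI:KO against WT, KI:KO against ERRα KO and KI:KO against ErbB2 KI. Over all genes this setting called 316, 626, 12 and 337. The methods' ANOVA gave 0, 2, 0 and 0 after Benjamini-Hochberg (all genes 110, 81, 0 and 0), and 14, 10, 6 and 9 at its own threshold (all genes 1761, 2324, 1051 and 1932), with 6 for ErbB2 KI against WT (all genes 562). Of the 10 in KI:KO against WT, 8 were among the 11 called by limma; Timp1, Lox and Mmp19 were lost, and Mmp8 and Mmp27 entered. In KI:KO against ErbB2 KI a filter on dim genes gave 8, limma-trend 10 and array weights 4 (all genes 1341, 1358 and 998, against 867). In KI:KO against ERRα KO limma-trend gave 4 and the mean of all probe sets 1 (all genes 294 and 70, against 73). With all arrays and no block limma called none of the 13 low members, whose signal near background limits what can be seen. In KI:KO against WT 4 of them had an unadjusted p under 0.05 (30.8%, beside 17.4% of all genes). Mmp13, Mmp8 and Mmp3 passed in that comparison in some alternatives. Quantile normalization and median centring ended 1 call, that of Mmp19 in KI:KO against WT.

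Replicate numbers are shared across genotypes in the labels, but same-numbered arrays did not deviate together (correlations from -0.19 to 0.20), so the numbers were not taken as pairs. With the replicate number as a block, 4 members were called in ERRα KO against WT (Timp2 and Timp3 were lost), 11 in KI:KO against WT, 2 in KI:KO against ERRα KO and 4 in KI:KO against ErbB2 KI. Over all genes the block gave 362, 1008, 38 and 680 in that order. A set of 4 arrays, 1 per genotype (the second WT and ERRα KO arrays and the third ErbB2 KI and KI:KO arrays), deviated together (0.18 to 0.25), and 2 alternatives on it were chosen after seeing the data. As a block it gave 6, 14, 2 and 5 members in the same order (all genes 568, 1444, 90 and 1005), and left out it gave 0, 7, 1 and 4 (all genes 243, 657, 127 and 462). In KI:KO against WT the block added Mmp13, Adamts4 and Loxl3, whereas leaving the set out ended the calls of Timp2, Mmp2, Adamts8, Adamts7, Lox and Loxl1 and added Mmp8 and Mmp13. The cause of these shifts was not tested.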
